A study of Populus trichocarpa with 12 samples.

Results

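Mild drought in the developing wood of Populus trichocarpa, black cottonwood, was followed through every region that the authors listed as differing in H3K9ac between day 5 without water and day 0, 10605 of the 22706 regions listed over both drought comparisons. No region was left out, and its change was taken as the log2 ratio of the mean normalised reads of the 2 day 5 libraries over those of the 2 day 0 libraries. Plants were 3 months old, grown in a greenhouse with 16 h of light. Day 0 plants were fully irrigated, with a soil water content of 74% and a xylem water content of 80.6%. Day 5 plants had gone 5 days without water, with 33% and 75.3%. Stem differentiating xylem of each day gave 2 immunoprecipitated (ChIP) libraries, made with an antibody against H3K9ac, and 2 input libraries of sonicated chromatin, so that 8 of the 12 samples entered. The labels give no mutation or transgene, and leave unsaid whether the replicates are separate plants, so that p-values measure only the spread between these samples, technical or not. Day 0 is the only watered group, and drought cannot be told apart from time or handling. These samples hold no RNA, so the labelled tissue was not checked against marker genes. In a bulk tissue, a change in the share of cells that carry the mark and a change within each cell cannot be told apart.

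H3K9ac is the acetylation of lysine 9 on the tail of histone H3. Acetyltransferases add it and deacetylases remove it, and in plants it sits mainly around the transcription start and the first part of active genes. Differentiating xylem is the layer in which cells left by the cambium expand, lay down thick secondary walls and become the water-conducting wood, and the expansion of its cells depends on turgor, which falls as water runs short. The tables name no genes, and the gene table at hand belongs to another assembly, so each region is given by its coordinates alone, 1-based and in the build of the deposited files.

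At day 5, H3K9ac was higher in 4997 of the listed regions (47.1%) and lower in 5608. Both day 5 libraries lay above both day 0 libraries in 4853 regions, 45.8% of all listed, and below both in 5423, or 51.1%. The remaining 329 regions (3.10%), in which the libraries of the groups overlapped, had a median change of only 0.04 in size on the log2 scale. Regions entered the list because these same libraries differed, so that both shares describe the selection and are no independent evidence of change. With limma, fitted to log2 normalised reads over all listed regions, 4185 were higher at an adjusted p under 0.05 (39.5% of those tested) and 4699 lower (44.3%). Together they made up 83.8% of all listed regions. These calls rest on the same libraries that selected the regions, so they too are no independent evidence. Day 5 was scaled by the authors' constants, under which its trimmed genome mean per kb stood at 80.5 normalised reads against 74.9 at day 0. When every library was instead scaled to its own genome mean, an alternative chosen after seeing the data, limma called 3269 regions higher and 5351 lower.

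Most of the changes were small compared with a doubling, and larger than the gap between replicates. The median region changed by 0.41 on the log2 scale, and the middle of the distribution, from the 5th to the 95th percentile, ran from 0.08 to 0.81. The median gap between replicates was 0.09 at day 5 and 0.08 at day 0. The median higher region held 1.33 times its day 0 reads and the median lower region 0.754 times. A change of at least 1.5-fold was reached by 1001 higher and 1115 lower regions, 2115 of which limma called. A doubling was reached by 90 regions and a loss to the same extent by 81, all 171 of them called. Taken between replicate 1 of each day and again between replicate 2 of each day, which share no library, the change had the same sign in 10408 regions (98.1%). Its correlation across the 10605 regions was 0.916, or 0.9 with the replicates crossed, a description of regions that were selected with all 4 libraries in view.

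The strongest change on each chromosome, taken in each direction, was about 2-fold to 3-fold. The highest region of each of the 19 chromosomes rose by 2.04-fold to 3.05-fold, with a median of 2.4-fold, and the lowest region of each fell by 2.05-fold to 3.06-fold, with a median of 2.35-fold. Separated libraries were a condition of this choice. Limma called each of them, with adjusted p from 0.00029 to 0.00686 for the gains and from 0.00029 to 0.00248 for the losses. Regions picked for large, separated changes in these same libraries are likely to be called, so the calls add no independent evidence. These regions were longer than most, at a median of 2100 bp for the gains and 2500 bp for the losses, against 1300 bp over all listed regions.

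**Figure D1:**
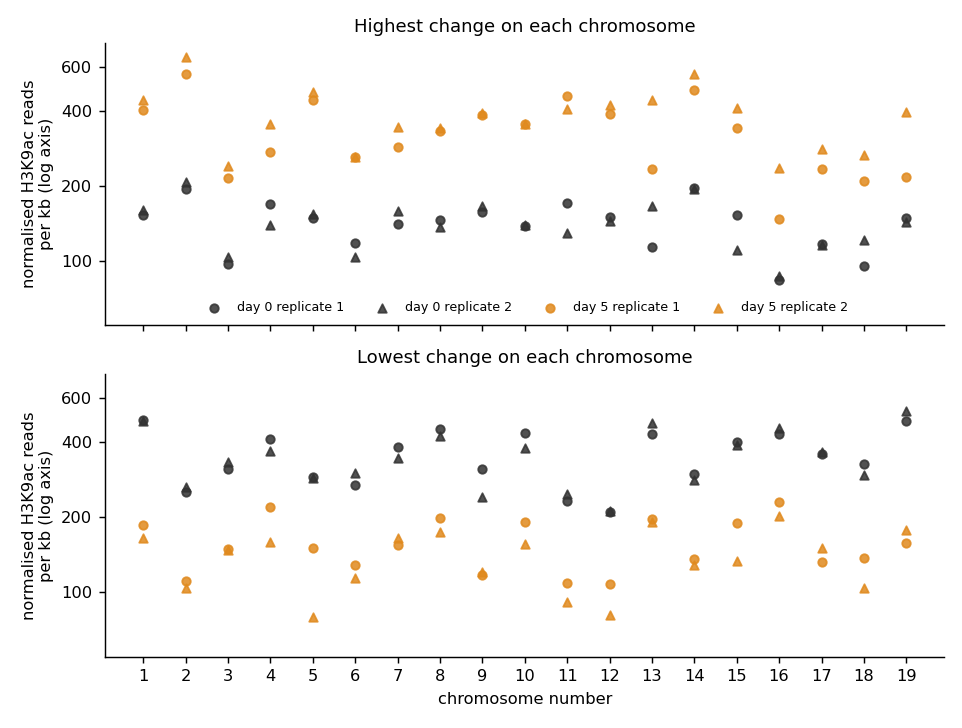
Normalised H3K9ac reads per kb (log axis) in each of the 4 libraries, for the region with the highest (top) and the lowest (bottom) change on each of the 19 chromosomes. Black symbols are day 0 and orange symbols day 5, with circles for replicate 1 and triangles for replicate 2. The orange symbols lie above the black ones in every column of the top panel and below them in the bottom panel, and the day 5 replicates stand far apart on chromosomes 13, 16 and 19 in the top panel and on chromosome 5 in the bottom one.

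On chromosome 2, chr2:4441401-4445000 held 701 and 744 normalised reads in the day 0 libraries and 2017 and 2360 in the day 5 libraries. Its lower day 5 library exceeded the higher day 0 library by far more than either pair of replicates differed, and the change was 3.03-fold, log2 1.60 (SE 0.09, limma adjusted p = 0.000302). On chromosome 12, chr12:13159401-13163400 went from 596 and 575 to 1557 and 1690 normalised reads, 2.77-fold. On chromosome 14, chr14:8085401-8089400 went from 782 and 778 to 1932 and 2239 normalised reads, 2.67-fold. Both of these regions were 4000 bp long and kept their days well apart. On chromosome 11, chr11:4987601-4989900 rose from 393 and 297 to 1049 and 934 normalised reads (2.87-fold, limma adjusted p = 0.000374), with day 0 libraries that differed more than in the regions above. The region chr8:584301-587600 rose from 481 and 452 to 1096 and 1125 normalised reads, 2.38-fold. The region chr9:7740401-7743300 rose from 453 and 481 to 1110 and 1134, 2.40-fold. Of these 6 gains, each had a recomputed enrichment over input above 2. The largest gain of the table, chr5:21194501-21198100 (3.05-fold), had 2.14. At all but chr14:8085401-8089400, the normalised reads thus stood above the input level that the deposited ratios imply at the same place. At that region the enrichment of 2.30 draws on the day 0 input of chromosome 14, which stood apart as described below, and is less certain.

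Not every leading gain was of that kind. The enrichment was 1.70 at chr1:33770301-33772900 (2.70-fold) and 1.57 at chr15:1334401-1337400 (2.87-fold). In 4 of the 19, the enrichment was under 0.5, so that on the scale of the deposited ratios input DNA stood above the immunoprecipitate. The region chr16:5129801-5131600 held 150 and 155 normalised reads at day 0 and 264 and 426 at day 5, with an enrichment of 0.169. The region chr19:5545401-5547100 held 251 and 243 at day 0 and 368 and 671 at day 5, with an enrichment of 0.152. In both, day 5 replicate 2 stood far above day 5 replicate 1, by 1.61-fold and 1.83-fold, while the day 0 replicates lay close together. The others of the 4, chr3:3825801-3827600 and chr4:9502901-9504800, had enrichments of 0.210 and 0.112. Their day 5 replicates differed less, by 1.12-fold and 1.29-fold, beside gains of 2.27-fold and 2.04-fold. Without day 5 replicate 2 the limma log2 change fell from 1.13 to 0.79 on chromosome 16 and from 1.01 to 0.57 on chromosome 19. Without day 0 replicate 1 or 2, the limma log2 change on chromosome 19 moved little, to 1.03 and 0.98. The leading gain of chromosome 13, chr13:6413601-6415400, also depended on single libraries, at 203 and 297 normalised reads at day 0 and 420.3 and 794 at day 5. Its limma log2 change was 1.23, 0.77 without day 5 replicate 2, and 0.96 without day 0 replicate 1. The enrichment of this region was 0.818, so that input DNA stood above the immunoprecipitate there too. The input that the deposited ratios imply was also higher at day 5 in this region, by 1.17 on the log2 scale. The part of the input in this gain was not tested. None of the 19 leading losses had an enrichment under 0.5; theirs ran from 0.666 to 2.66.

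The deepest loss in the table was on chromosome 19. There, chr19:11045401-11047900 fell from 1219 and 1337 normalised reads at day 0 to 393 and 443 at day 5, to 0.327 of its former level (log2 -1.61, SE 0.09, limma adjusted p = 0.00029). No day 5 library came near either day 0 library. On chromosome 1, chr1:27932601-27935200 fell from 1277 and 1262 to 486 and 428 normalised reads, and on chromosome 18, chr18:1292001-1294100 fell from 687 and 620 to 288 and 219. These regions kept 0.360 and 0.388 of their day 0 reads. On chromosome 13, chr13:15307001-15310500 fell from 1516 and 1668 to 685 and 670 normalised reads, or 0.426 of day 0. On chromosome 2, chr2:24638201-24641000 fell from 709 and 741 to 311 and 292 normalised reads, or 0.415 of day 0. The loss of chr5:5764001-5766000, from 579 and 575 to 300 and 159, was less certain in its size, since the day 5 replicates differed by 1.89-fold (limma log2 -1.40, SE 0.25, limma adjusted p = 0.00248). The 5 losses before it had day 5 replicates within 1.31-fold of each other. The widest disagreement between day 5 replicates in the whole table was 2.00-fold, at chr3:19589501-19590900. That region held 336 and 168 normalised reads at day 5 and 376 and 371 at day 0, below day 0 in both libraries, and was not called (limma adjusted p = 0.0569).

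Every listed region held more H3K9ac reads per kb than the trimmed genome mean on both days. The median higher region started at 2.98 times the trimmed genome mean of day 0 and reached 3.85 times that of day 5. The median lower region started at 4.14 times and ended at 2.76 times. Only 265 of the higher regions (5.30%) started under 2 times the genome mean, and 27 under 1.5 times, so that a rise from background was uncommon among the listed regions, within what the floor described next lets in. A fall to that level was likewise uncommon, with 543 lower regions (9.68%) ending under 2 times the mean and 43 under 1.5 times. The regions with the lowest levels were picked after their values were seen. The lowest start, chr13:14847801-14849400, rose from 103 and 154 normalised reads at day 0 to 264 and 248 at day 5, with an enrichment over input of 0.425. The next 3 starts, among them chr5:12743101-12744900 with 181 and 132 normalised reads at day 0 and 285 and 366 at day 5, had enrichments from 0.0894 to 0.169. The lowest end, chr1:9362401-9363700, fell from 242 and 279 normalised reads to 133 and 77.6, with an enrichment of 1.34. In the next 3 ends the enrichment was 0.666, 1.94 and 2.85, so that the 4 lowest starts lay lower in enrichment than the 4 lowest ends. The last of these, chr5:24438301-24439500, fell from 255 and 271 normalised reads to 127 and 120.

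A minimum level set which regions could be listed, and it shapes any ordering by the level at one day. The header's mean and 2 deviations per 1000 bp bin come to 222.2 normalised reads per kb. Among the 3233 regions of exactly 1 window (1000 bp), the larger of the 2 group means was never under 222.4. Of these, all 769 that stood under the floor at day 0 were higher at day 5, and all 846 that stood under it at day 5 were lower, as the floor itself requires. Above it on both days were 1618, of which 798 (49.3%) were higher. Of the 2121 regions with the fewest day 0 reads per kb, over all lengths, 94.7% were higher at day 5, and of the 2121 with the most, 25.9%. Ordered by day 5 reads per kb the order turned around, from 2.69% in the lowest group of that size to 67.2% in the highest. Ordered by the mean of both days it was flat over 5 groups of that size, between 45.0% and 49.0%. A share of gains by the level of a single day therefore carries the selection of the list with it.

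**Figure D2:**
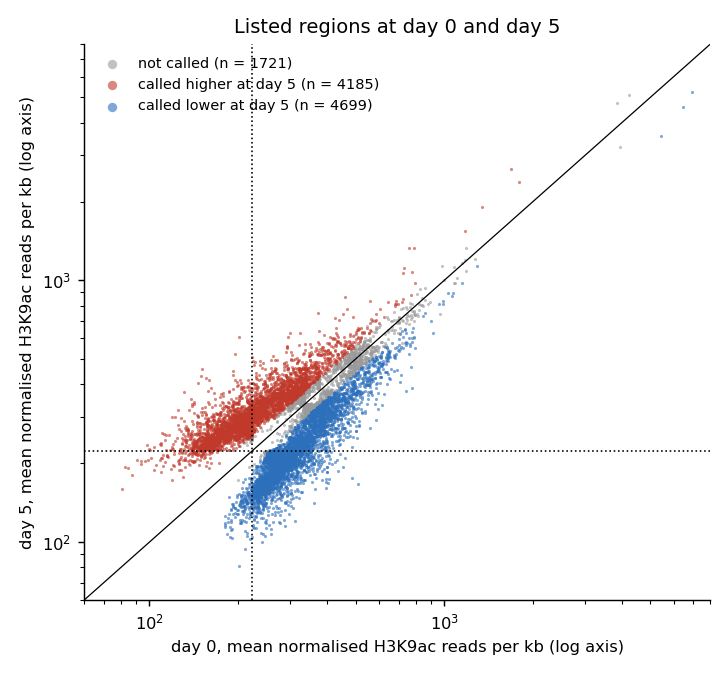
Mean normalised H3K9ac reads per kb at day 0 (horizontal, log axis) and day 5 (vertical, log axis) for the 10605 listed regions, coloured by the limma call. The solid line marks equal levels and the dotted lines the floor of 222.2 normalised reads per kb; 251 regions lie below both dotted lines, none of them of 1000 bp, and the grey regions that limma did not call lie along the solid line.

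Among the 2121 regions with the most day 0 reads per kb, the median log2 difference between day 0 replicates was 0.067. Among the 2121 with the fewest it was 0.096. In contrast to that richest group as a whole, the few regions named for the most day 0 reads per kb had day 0 libraries that lay far apart. The 3 with the most day 0 reads per kb among the lower ones included chr8:19137901-19139800, which held 14760 and 11658 normalised reads at day 0 and 10293 and 9667 at day 5. Its lower day 0 library lay closer to day 5 than to the other day 0 library, and the change was log2 -0.40 (SE 0.14, limma adjusted p = 0.0352). With a replicate block, limma did not call this region. Without day 0 replicate 1 its limma log2 change shrank to -0.22. The region chr5:10716501-10719400 held 21148 and 16243 at day 0 and 13743 and 12997 at day 5, log2 -0.48, and chr5:10798101-10800000 held 11941 and 8642 at day 0 and 7134 and 6371 at day 5, log2 -0.61. Their limma log2 changes without day 0 replicate 1 were -0.28 and -0.36. Among the higher ones, chr13:14788901-14791900 held 14279 and 11063 at day 0 and 15309 and 15396 at day 5. There the groups did not overlap, yet limma did not call it (limma log2 0.29, SE 0.15, limma adjusted p = 0.109). The region chr11:7193101-7199400, with 12386 and 10157 at day 0 and 14589 and 15274 at day 5, was called (log2 0.41, limma adjusted p = 0.0259). Without day 0 replicate 2 its change was 0.27. The enrichments of these 2 regions were 0.0671 and 0.0812, and those of the 3 losing regions ran from 1.36 to 1.82. The inputs that the deposited ratios imply were also higher at day 5, by 0.57 and 0.47 on the log2 scale in these 2 regions. In the 3 losing regions they were higher by 0.64 to 0.81. The part of the inputs in these changes was not tested.

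The list also held many regions with next to no change in their mean reads, and their p-values in the authors' own window test were nonetheless far under its threshold. The 3 smallest changes of all were in chr10:13568501-13570000, chr10:15573901-15575100 and chr13:13411801-13413100. In the first, the libraries held 974 and 1018 normalised reads at day 5 and 1019 and 972 at day 0. The ranges of the days overlapped almost entirely, and limma gave an adjusted p of 0.994. Altogether 1066 regions (10.1%) changed by less than 1.1-fold, and limma called none of them. For 971 of these, the 95% counting interval of the ratio (exact, from the reads of both libraries of a day, counting error only) held no change. In the authors' deposited table, no window p of these 1066 exceeded 4.002e-10.

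The pattern was clearest in regions of 1 window, where region and window are the same stretch. In the authors' deposited table, 2372 of the 3233 had a window p under 1e-8, a limit chosen after seeing the data. The median size of their log2 change was 0.22, and limma called 58.2% of them. For the 861 with a larger p in the authors' deposited table it was 0.51, and limma called 99.1%. So the smaller deposited p went with the smaller change. The share of regions with next to no change went with the level. At a mean of both days from 260 to 320 normalised reads, none of 324 regions changed by less than 1.1-fold, and from 400 to 470 none of 42. Between these, from 320 to 400, 438 of 930 did (47.1%), and from 470 upward 183 of 268 (68.3%). A small window p did not always go with so small a change. From 230 to 260, the median log10 window p of the authors' deposited table was -10.8. Yet none of those 1253 regions changed by less than 1.1-fold, and limma called 82.8% of them. The number of regions moved with the level as well, with 61 from 220 to 230 normalised reads and 680 from 230 to 240. An example is chr1:44951401-44952400, picked after its values were seen, with 346 and 325 normalised reads at day 5 and 332 and 335 at day 0. Its log2 change was 0.01, its counting interval ran from -0.14 to 0.18 and its window p in the authors' deposited table was 5.3e-11. At the other end, chr7:2615101-2616100 fell from 238 and 282 to 140 and 116 normalised reads, a log2 change of -1.02. Its window p in the authors' deposited table was 2.5e-08, larger than that of the unchanged region.

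**Figure D3:**
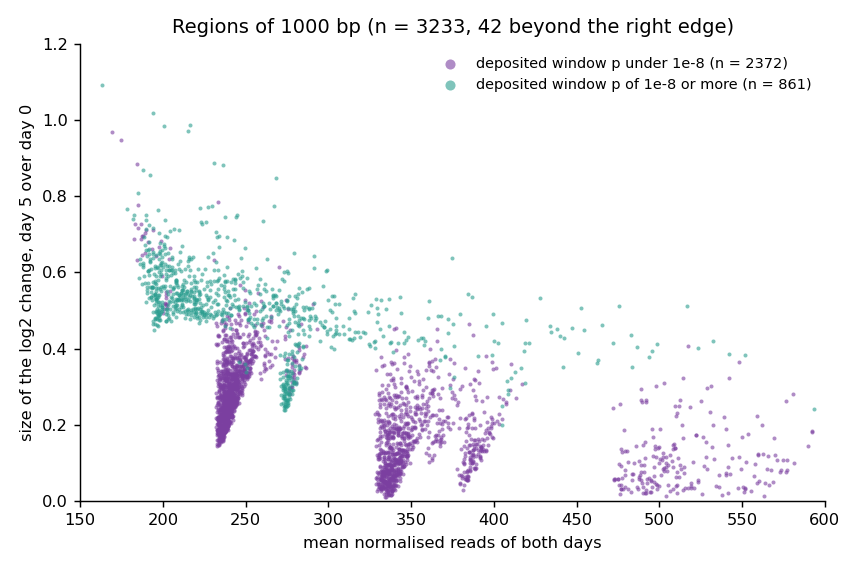
Size of the log2 change against the mean normalised reads of both days for the 3233 listed regions of 1000 bp, coloured by the window p of the authors' deposited table. Regions with a window p under 1e-8 form wedges that start at distinct levels near 230, 330 and 470 and, from 320 upward, reach down to almost no change, while the rest show changes of 0.2 or more.

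In the day 7 table, whose day 0 libraries are shared, 710 regions of 1000 bp had a window p under 1e-8 in the authors' deposited table, with a median change of 0.33, and 3405 had a larger one, with a median change of 0.23. The reversal seen at day 5 was thus not present there in the medians, although 653 of those 3405 changed by less than 1.1-fold. What set the wedges was not tested. Of the 9539 regions that changed by at least 1.1-fold at day 5, limma called 8884.

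Longer regions changed more. The median change grew with each class of length, from 0.28 on the log2 scale at 1000 bp to 0.38 at 1100 to 1400 bp, 0.45 at 1500 to 1900 bp, 0.57 at 2000 to 2900 bp, 0.68 at 3000 to 4900 bp and 0.74 in the 29 regions of 5000 bp or more. The gap between the day 5 replicates grew far less, from 0.08 to 0.15, and that between the day 0 replicates did not grow, with 0.08 and 0.06. Limma called 69.1% of the 1000 bp regions, and 480 of the 485 regions of at least 3000 bp. Length depends on how many neighbouring windows passed the authors' test on these same libraries, so it is no independent property of a region. Losses were the larger number in each class up to 4900 bp, with 48.5%, 47.9%, 47.4%, 42.6% and 46.1% of regions higher in order of length, and 16 of the 29 longest were higher.

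**Figure D4:**
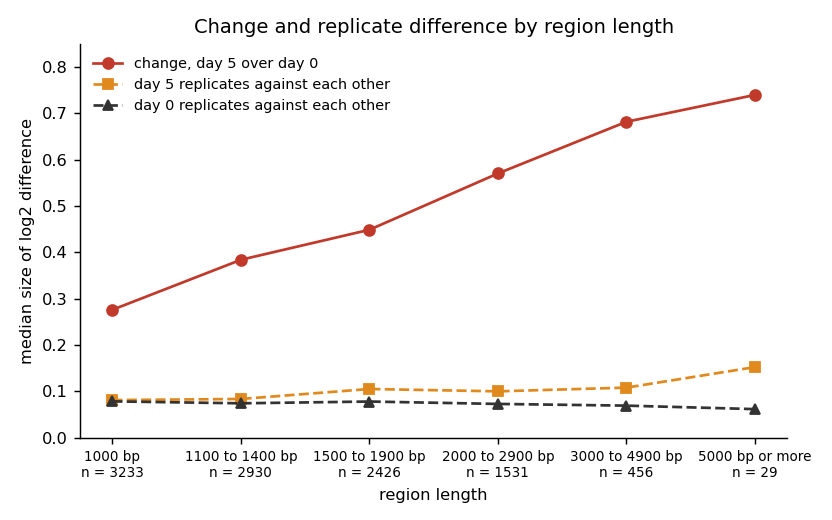
Median size of the log2 change of day 5 over day 0 (red) and of the log2 difference between replicates of day 5 (orange) and day 0 (black), by class of region length. The change rises from 0.28 to 0.74 while the replicate differences stay at or under 0.15.

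The 3 longest regions of each direction differed in their enrichment, with 0.156 to 0.173 in the gains. Over all 29 regions of 5000 bp or more, of both directions, the median enrichment was 1.58, so the contrast is one of these few regions. The longest of all, chr13:14864401-14883900, spanned 19500 bp and held 14478 and 15235 normalised reads at day 0 and 23530 and 28477 at day 5. Its 1.75-fold rise came with an enrichment of 0.161. The next, chr2:18376901-18390200, rose 2.01-fold with an enrichment of 0.156, from 5225 and 4709 to 8082 and 11875 normalised reads. In both, day 5 replicate 2 was the higher of the pair, and the days did not overlap. The longest losses had enrichments between 1.89 and 2.26. The longest, chr15:11701201-11707500 of 6300 bp, fell from 2322 and 2318 to 1718 and 1605 normalised reads, to 0.716 of day 0. The region chr12:13322301-13328300 fell from 2081 and 2066 to 1279 and 1245 normalised reads over 6000 bp, to 0.609 of day 0, with an enrichment of 1.89. The region chr3:21621001-21627000, also 6000 bp long, fell from 2071 and 2220 to 1389 and 1430, to 0.657, with an enrichment of 2.26. The day 5 replicates of the 3 differed by 1.03-fold to 1.07-fold, and in none did the days overlap.

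Enrichment over input was recomputed as the geometric mean of both days' deposited ratios, because in these tables the day 5 libraries were set against the day 0 inputs and the reverse. The 162 regions under 0.5 were higher at day 5 in 97.5%, and in them day 5 replicate 1 lay 0.31 below replicate 2 on the log2 scale at the median, against a median gap of 0.09 over all regions. From 0.5 upward the share of higher regions rose from 16.6% of 367 regions at 0.5 to 1, through 23.8%, 41.1%, 60.4% and 70.3%, to 84.4% of 244 regions at 4 or more. Each of the 4 pairs of a day 5 and a day 0 library gave between 16.6% and 16.9% in the first of these classes and between 83.6% and 85.2% in the last. Among regions above the floor on both days and without chromosome 14, a restriction chosen after seeing the data, the shares over the same classes were 28.2%, 23.7%, 35.6%, 53.5%, 64.5% and 80.7%, so that the lowest was at 1 to 1.5.

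The order did not appear with every measure of enrichment. By the deposited day 0 enrichment alone the share of higher regions was between 43.7% and 50.1% in all classes from 0.5 upward, and by the deposited day 5 enrichment alone it ran from 4.13% at 0.5 to 1 to 93.6% at 4 or more. Either deposited ratio shares a numerator with the change, in opposite directions. The recomputed one weighs both days alike, but its inputs moved too. Relative to the median region, the day 5 input lay 0.39 above the day 0 input on the log2 scale in the class of 0.5 to 1 and 0.29 below it in the class of 4 or more. The part of the inputs in the order was not tested.

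**Figure D5:**
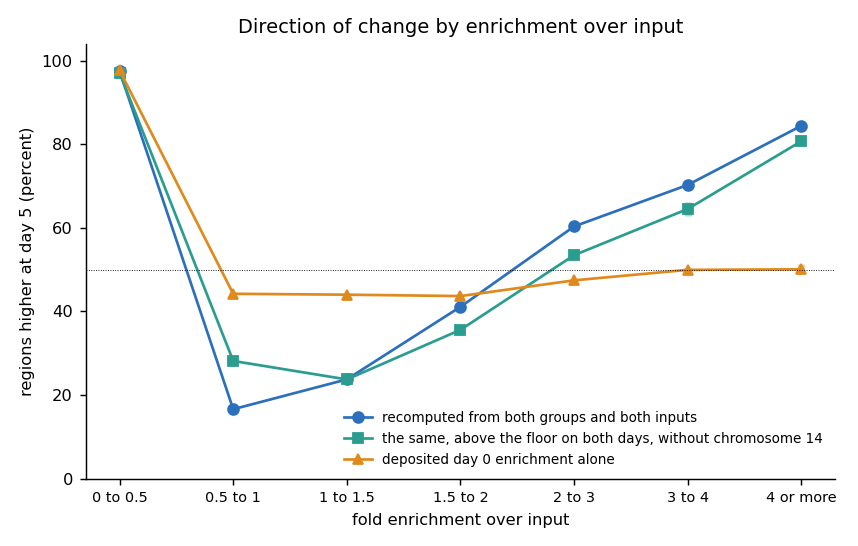
Share of listed regions that were higher at day 5 (percent) by class of fold enrichment over input, for 3 ways of taking the enrichment. Bars behind the points span the 4 pairs of libraries; with the recomputed enrichment the share rises from 16.6% at 0.5 to 1 to 84.4% at 4 or more, and with the deposited day 0 enrichment it stays between 43.7% and 50.1% over the same classes.

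Of the 6 regions named for their enrichment, the 3 highest in each direction, 5 were at most 1300 bp long. The changes of the 6 ranged from almost none to 0.62 in size on the log2 scale. The highest, chr12:11985901-11987000 with 8.26, rose from 197 and 206 to 238 and 360 normalised reads, so that much of its 1.48-fold gain came from day 5 replicate 2. Its limma log2 change was 0.54, and without that library 0.24. The gain of chr1:17590201-17591200, with an enrichment of 7.61, likewise went from 0.51 to 0.17 without it. A firmer gain was that of chr18:5903901-5905000, with an enrichment of 7.88, which rose from 209 and 229 to 285 and 333 normalised reads (1.41-fold, limma adjusted p = 0.00397). Among the lower ones, chr12:3069801-3071100, with an enrichment of 5.78, fell from 376 and 448 to 259 and 278 normalised reads (0.652 of day 0, limma adjusted p = 0.00188). The longest of the 6, chr3:20511801-20514600 of 2800 bp, fell from 2834 and 3163 to 2415 and 2615, to 0.839 of day 0. Its call lay close to the threshold (limma adjusted p = 0.0343). In contrast, chr1:6153901-6154900, with 6.77, moved from 484 and 480 to 465 and 462, a change to 0.962 that separated the libraries and that limma did not call (adjusted p = 0.437).

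Chromosome 14 stood apart in its input over the day 5 table. The median region there implied 253 day 0 input reads per kb in the day 5 table, on the scale of the normalised reads, against 152.5 to 167 on the other 18 chromosomes, 1.59 times their median. In the day 7 table, whose header names the same day 0 inputs, it implied 158, or 1.02 times the median. In 30 regions of chromosome 14 with identical coordinates in both tables, the log2 ratio of the implied day 0 inputs of the tables ran from -0.65 to 1.36, and 29 fell outside the range of 0.04 to 0.09 held by 560 such regions elsewhere. The tables gave the same day 0 H3K9ac reads for all 30. The median H3K9ac change of the 595 regions of chromosome 14 was -0.08, within the range of the other chromosomes. Their median level was the highest of the 19 chromosomes, 297 normalised reads per kb at day 0 and 290.2 at day 5, and the median size of their change the lowest, 0.37 on the log2 scale. The deposited day 5 enrichment of chromosome 14 was 1.16 at the median, against 1.70 to 1.91. Only 1 of the 244 regions with a recomputed enrichment of 4 or more lay there. Among the 367 at 0.5 to 1 there were 33, and without them the share of higher regions was 17.1%.

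Gains and losses lay mixed along the genome. By chromosome, the share of higher regions ran from 40.1% of 374 regions on chromosome 16 and 40.4% of 369 on chromosome 15 to 52.0% of 1216 on chromosome 1 and 53.3% of 351 on chromosome 18. Along the length of the chromosomes, in steps of 10% up to the last listed region, it lay between 42.0% and 51.9%, the lowest at the far end. Of 328 stretches of 1 Mb with at least 10 regions, 169 held between 40% and 60% higher regions, 6 reached 80% and 4 were at or under 20%. Named after their values were seen, 17 of 21 regions between 13 and 14 Mb of chromosome 11 were higher, with a median change of 0.57. Between 11 and 12 Mb of chromosome 19, 8 of 38 were higher, with a median of -0.39, and the deepest loss lay there. The densest stretch, at 18 to 19 Mb of chromosome 10, held 79 regions, 43 of them higher.

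Opposite changes also met at single places. Of 164 pairs of overlapping listed regions 159 changed in opposite directions, and in 86 of those all libraries were separated in both regions. The smaller change of such an opposite pair was only 0.06 in size at the median, on the log2 scale. The authors joined windows into regions, with a gap of 0 bp per the file headers, which leaves few overlaps of like direction, and nothing is read from the number of opposite ones. Overlapping regions share part of their reads, a median of 600 bp over the 164 pairs. The pair with the largest smaller change, picked for that, was chr1:50304601-50305600, which rose from 171 and 151 to 233 and 234 normalised reads (log2 0.54), beside chr1:50305301-50306900, which fell from 645 and 608 to 467 and 387 (log2 -0.55). A second, chr1:43641701-43643200 beside chr1:43642701-43644200, rose by 0.37 and fell by 0.37 on the log2 scale. Among 500 pairs of neighbours that lay less than 1 kb apart without overlap, 105 were opposite, so that most close neighbours moved alike.

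Outside the 19 chromosomes, 25 regions lay on sequences that this table numbers 20, 21 and 23 and the day 7 table calls scaffolds. Of these, 19 were higher at day 5, or 76.0%, against 47.1% of all listed regions. Limma called 14 higher and 4 lower, or 72.0%, against 83.8% of all listed regions. On number 20, chr20:412201-413300 rose from 138 and 187 to 254 and 258 normalised reads, with an enrichment of 6.16. The region chr23:745401-747500 rose from 488 and 533 to 893 and 1128, with an enrichment of 0.126. They were picked after their values were seen, and a share over 25 regions carries little precision.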

How the data were processed

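H3K9ac and input ChIP-seq libraries of day 0 and day 5, 2 replicates each, enter through the authors' deposited table of differential regions. Chromatin was cut by sonication to between 200 and 1000 bp, and fragments near 250 bp were amplified over 18 PCR cycles, per the labels' protocols. Per the submitters' processing notes, Bowtie was used; for its version and the genome build, the sources used here give nothing. The tool diffReps 1.55.4, per the file headers, tested windows of 1000 bp in steps of 100 bp and listed those with a p-value under 0.0001. Other cells of the deposited table hold the normalised reads of both libraries of a group, divided by the authors' constants per library. A deposited ratio gives each group's fold enrichment over its background, which per the file headers was the inputs of the other day. The deposited log2 change, adjusted p and event columns were not used.

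From these values the change, limma 3.58.1 in R 4.3.3 (log2 normalised reads, no pseudocount, trended prior variance, Benjamini-Hochberg over all 10605 regions, no replicate block) and the recomputed enrichment were computed. A group mean is followed by no SD where both libraries are printed. Multiplied by fitted constants, the values came out as whole reads (within 0.1) in 100% of regions. Reads within the listed regions numbered 5813447 and 4017187 at day 5 and 5156357 and 5232391 at day 0, which are not library depths, and the smallest value was 62 reads. Input depth is unknown. Reads carry no molecular identifiers, so intervals cover counting error only. A count model was not used, since the table holds normalised values. An exact permutation test of 2 libraries against 2 cannot go below p = 0.333, and none is given. The limma step was tested on simulated data. Named regions, with all libraries of the days separated and at least 20 normalised reads in the higher group, were the highest and lowest per chromosome and, in each direction, the 3 longest, the 3 with the most day 0 reads per kb and the 3 of highest enrichment. Among all regions, the 3 smallest changes and the 3 largest ratios between day 5 replicates were added. Regions outside this rule are marked in the text. The members, the classes and the lists were chosen with earlier results of these data known.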

Additional observations from a re-analysis of the deposited data

Results flagged for a closer look

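The day 0 input on chromosome 14, which the comparison of H3K9ac does not use, stood at 1.59 times the median of the other 18 chromosomes in the day 5 table and at 1.02 times in the day 7 table. It is a signal outside the main measurement, since input DNA enters only the enrichment. The H3K9ac reads of chromosome 14 and the limma calls do not draw on it, and the enrichment over input does. What set it was not tested.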

How the results depend on the processing

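None of the counts, shares and medians by class that were put through the settings below changed direction. Classes by chromosome, by position and of most lengths were seen over single pairs of libraries only. Some class medians near no change took both signs over those pairs. At a deposited day 0 enrichment of 4 or more, the median ran from -0.022 to 0.031. Among the named regions 3 changed sign, and limma called none of them under any setting. Leaving out a library in turn, the log2 change of chr10:13568501-13570000, 0.0005 as reported, ran from -0.03349 to 0.0345, that of chr10:15573901-15575100, -0.0042, from -0.03213 to 0.0237, and that of chr13:13411801-13413100, -0.0045, from -0.06182 to 0.05282. The first was also -0.08234 unscaled and -0.1032 scaled to the genome mean. Unscaled reads left limma with 2 regions higher and 2 lower at an adjusted p under 0.05 (1142 at an unadjusted p under 0.05), as replicates of unequal depth then differ by their depth. Leaving out a library leaves 1 in its group, so a region's own spread then comes from the intact pair alone. Calls under those settings are therefore not compared, and only the changes are given. With a replicate block limma called 4121 higher and 4618 lower. Same-numbered libraries share only a number, and their deviations correlated at 0.108 over 2 pairs. A threshold of 0.01 gave 3143 and 3512. A pseudocount, a filter on low reads, median centring, no trend, and the removal of overlaps or of chromosome 14 each moved the counts by less than 1.5 times. Single pairs of libraries put the share of higher regions at 47.12% to 47.26%, the share at an enrichment of 0.5 to 1 at 16.62% to 16.89% (median change -0.48 to -0.32), that at 4 or more at 83.61% to 85.25% (0.25 to 0.50), and that in the highest group by day 0 level at 25.84% to 26.78%. Scaling to the genome mean gave 43.99% over all regions, 16.35% (median -0.54), 81.97% and, in the highest group, 18.01%. The deposited day 0 enrichment alone gave 44.23% (-0.20) and 50.1% (0.0198), and day 5 alone 4.125% (-0.52) and 93.64%. Without chromosome 14 the share was 47.19% over all regions, 17.07% at 0.5 to 1, 94.67% in the lowest group and 46.85% at 3000 bp or more. Above the floor it was 28.17% (-0.30) and 80.75% (0.27). With the level from a single day 0 library and the change against the other, the lowest group gave 94.42% and 94.82%, and the highest 25.34% and 25.22%. The added settings were chosen after seeing the data. Among 62 limma results of named regions, 49 calls were lost with unscaled reads, where the values moved little (chr1:33770301-33772900 from 1.434 to 1.351). Lost were 2 with genome mean scaling and 3 with the replicate block, among these 3 chr8:19137901-19139800 (limma adjusted p = 0.0504). The median 95% counting interval spanned 0.36 on the log2 scale in regions of 1000 bp and 0.30 over all.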
